A study of Mus musculus with 83 samples.

Results

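The cytochrome P450 family was followed in the colon of male mice over 5 ages. Members were the protein-coding genes of the count table whose symbol is Cyp followed by a number, a letter and a number, without Cyp51. The table lists 37764 genes, of which 19326 are annotated as protein-coding, and 94 of these were members. RNA was sequenced from the proximal part of the colon of 83 mice of the strain C57BL/6J/Ukj, an inbred line kept for aging in a controlled environment, and the labels name no treatment. The mice were 3 months (n = 16), 9 months (n = 16), 15 months (n = 16), 24 months (n = 17) and 28 months (n = 18) old, and each animal gave 1 library. All libraries held polyadenylated RNA of whole tissue, were prepared in 3 library preparation batches that each contained every age, and gave 23026370 to 75838290 counted read pairs. In bulk tissue, fewer cells of a type and less RNA per cell cannot be told apart.

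Cytochrome P450 enzymes are heme proteins of the endoplasmic reticulum or mitochondria that insert an oxygen atom into their substrates, with electrons delivered by the reductase Por or by ferredoxin. Families CYP1 to CYP3 oxidise drugs, plant compounds and pollutants and are induced through receptors such as the aryl hydrocarbon receptor (AhR), the pregnane X receptor (Nr1i2) and the constitutive androstane receptor (Nr1i3), while members of CYP2C, CYP2J and CYP4 act on arachidonic acid and other fatty acids. Other members make or clear sterols, bile acids, steroid hormones, vitamin D and retinoic acid. In the intestine the family forms a first barrier against swallowed chemicals.

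Promoters are shown for 8 members because the results turn on them, namely the 2 CYP1 genes that were tested, the neighbouring CYP2C genes Cyp2c55, Cyp2c65 and Cyp2c66, and the 3 CYP3A genes of highest level. The sequences are the 250 bases upstream of the start annotated by RefSeq in GRCm38.p6, written 5′ to 3′ on the strand of the gene. RefSeq windows were matched for 75 of the 94 members, in 85 windows. For the CYP1 pair, both textbook AhR targets, capitals mark GCGTG, the core of the AhR binding site, or its reverse complement CACGC.
Cyp1a1, chr9:57697363-57697612, plus strand: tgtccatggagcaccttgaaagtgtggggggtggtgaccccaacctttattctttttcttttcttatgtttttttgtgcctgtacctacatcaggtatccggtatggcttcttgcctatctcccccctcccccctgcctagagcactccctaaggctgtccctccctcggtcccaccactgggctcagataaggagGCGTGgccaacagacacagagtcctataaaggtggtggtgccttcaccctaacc
Cyp1b1, chr17:79715062-79715311, minus strand: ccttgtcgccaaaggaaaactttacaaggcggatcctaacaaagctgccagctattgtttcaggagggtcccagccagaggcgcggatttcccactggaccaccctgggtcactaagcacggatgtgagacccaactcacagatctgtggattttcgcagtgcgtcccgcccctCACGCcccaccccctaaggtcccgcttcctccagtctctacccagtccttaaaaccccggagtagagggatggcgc
Each of the CYP1 sequences held the core 1 time, at position -54 from the start in Cyp1a1 and at -76, on the opposite strand, in Cyp1b1. The same letters occurred on either strand in 28.2% of all 32851 upstream windows, so a match is a description and not a site. For the CYP2C genes, capitals mark CAAAGTCCA, a form of the HNF4 site, and TATAAA, each searched on both strands.
Cyp2c55, chr19:39006769-39007018, plus strand: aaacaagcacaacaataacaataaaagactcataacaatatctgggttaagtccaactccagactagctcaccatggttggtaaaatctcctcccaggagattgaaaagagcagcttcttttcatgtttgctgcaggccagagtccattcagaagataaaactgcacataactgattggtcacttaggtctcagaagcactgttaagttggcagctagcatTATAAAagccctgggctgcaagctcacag
Cyp2c65, chr19:39060756-39061005, plus strand: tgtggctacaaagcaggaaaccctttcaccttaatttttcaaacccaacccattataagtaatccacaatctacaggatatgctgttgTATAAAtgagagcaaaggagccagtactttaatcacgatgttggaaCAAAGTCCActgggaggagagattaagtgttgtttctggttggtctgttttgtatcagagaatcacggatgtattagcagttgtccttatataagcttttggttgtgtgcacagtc
Cyp2c66, chr19:39113648-39113897, plus strand: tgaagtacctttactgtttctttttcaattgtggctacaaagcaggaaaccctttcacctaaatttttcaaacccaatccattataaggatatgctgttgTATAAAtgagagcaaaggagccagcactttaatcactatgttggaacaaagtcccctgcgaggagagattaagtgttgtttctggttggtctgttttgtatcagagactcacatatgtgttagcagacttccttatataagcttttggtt
CAAAGTCCA stood at -116 in Cyp2c65 and was not among the letters of the Cyp2c55 and Cyp2c66 windows. It occurred in 0.384% of all upstream windows and in 10 of the 85 windows of members, those of Cyp2c40, Cyp2c65, Cyp2c67, Cyp2c68, Cyp2c69, Cyp2c70, Cyp3a11, Cyp3a16, Cyp3a41a and Cyp8b1. Several of these genes are close copies of each other, so the windows are not independent. TATAAA was found in 12.4% of all upstream windows and stood at -29 in Cyp2c55, at -162 in Cyp2c65 and at -150 in Cyp2c66. For the CYP3A genes, capitals mark AGGTCA, the core hexamer bound by many nuclear receptors, with its reverse complement TGACCT, and TATAAA.
Cyp3a13, chr5:137921620-137921869, minus strand: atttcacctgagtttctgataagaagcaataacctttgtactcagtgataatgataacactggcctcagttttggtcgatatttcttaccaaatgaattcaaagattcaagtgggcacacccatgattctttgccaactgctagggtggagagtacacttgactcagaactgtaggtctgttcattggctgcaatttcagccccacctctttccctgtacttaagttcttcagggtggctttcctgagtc
Cyp3a25, chr5:146009619-146009868, minus strand: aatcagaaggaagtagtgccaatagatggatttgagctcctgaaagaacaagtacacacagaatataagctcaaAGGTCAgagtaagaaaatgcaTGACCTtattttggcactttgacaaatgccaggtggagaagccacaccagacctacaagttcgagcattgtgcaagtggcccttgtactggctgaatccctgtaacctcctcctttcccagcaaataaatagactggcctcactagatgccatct
Cyp3a44, chr5:145805875-145806124, minus strand: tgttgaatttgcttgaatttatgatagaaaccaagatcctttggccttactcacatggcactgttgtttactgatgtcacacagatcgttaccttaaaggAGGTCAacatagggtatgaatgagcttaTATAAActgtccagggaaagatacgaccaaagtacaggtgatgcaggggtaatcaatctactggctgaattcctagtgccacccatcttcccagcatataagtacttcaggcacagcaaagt
The Cyp3a25 window, the first of 2 annotated for this gene, held AGGTCA at -176 and its reverse complement at -155. Cyp3a44 held AGGTCA at -150 and TATAAA at -122, and the Cyp3a13 window held neither motif. AGGTCA occurred on either strand in 4607 of the 32851 upstream windows. The marked motifs did not overlap in these 8 windows.

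Of the 94 members, 45 passed the filter on low counts and were tested, among 18325 genes tested in all. The other 49 had mean levels of at most 0.168 CPM (counts scaled to the library size after TMM normalization), and 25 of them had fewer than 10 counts summed over all 83 mice. The filter asks for about 0.282 CPM in a minimum number of mice set by the size of the smallest age group. The mean of 41 tested members lay above this value at every age. The exceptions were Cyp2c23 (above it at 1 age), Cyp4f39 (at 2 ages), Cyp3a11 (at 3 ages) and Cyp2c40 (at 0 ages), which passed through the mice in which they were high, so that their presence among the tested members is not independent of a difference. They remain in the counts of called members below, Cyp2c23 among the lower and Cyp2c40 and Cyp4f39 among the higher at 28 against 3 months. Cyp3a11 is counted among the lower at 9 against 3 months and among the higher at 24 against 15 months. Cyp2c23, Cyp3a11 and Cyp4f39 are also counted over any age difference, and Cyp3a11 among the departures from a straight line. The differences of these genes themselves are given without a p.

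Some libraries stood apart in their tissue composition. The 3-month mice numbered 7, 10, 12 and 16 and the 9-month mice numbered 4, 6 and 13 had 828 to 2190 summed CPM of smooth muscle markers, where the others had at least 2544. Pancreatic acinar markers, at most 5.71 summed CPM elsewhere, reached 207, 94.1 and 105.5 CPM in the 24-month mice 11 and 16 and the 28-month mouse 14. Colonocyte markers summed to 7134 to 14750 CPM over all mice, and 1 of 6 was called at 28 against 3 months. General epithelial markers were lower in 3 of 6 cases, goblet cell markers were lower in 5 and higher in 1 of 6, and distal colon markers, whose sum ranged from 3.275 to 45.9 CPM, were lower in 2 of 3. The part of these shifts in the results below was not tested except where a value without those mice or with a marker score is given.

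Levels between genes were compared as TPM, a unit of transcript abundance made from the counts per base of merged exons, scaled to the same total in each mouse. Cyp2c55, a CYP2C enzyme of the large intestine that hydroxylates arachidonic acid, dominated the family. Its mean TPM over all mice was 4868, against 552.6 for Cyp2c65, the next gene. In the mice of 3 months Cyp2c55 held 71.1% ± 6.55 (SD, n = 16) of the summed TPM of all members. In those of 28 months it held 72.0% ± 2.52 (SD, n = 18), and single mice lay between 50.2% and 77.3%. The summed TPM of the family had its lowest mean, 6362 ± 808.1 (SD, n = 16), in the 15-month mice and its highest, 6917 ± 979.0 (SD, n = 16), in the 9-month mice. These means differ by less than the SD of any age.

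After the CYP2C pair followed Cyp4f14, which inactivates leukotrienes, with a mean of 174 TPM, Cyp3a13, the main CYP3A enzyme of the mouse gut, with 169 TPM, and Cyp2d34 with 157 TPM. The next 5 were Cyp2s1 (87.3 TPM), Cyp4f40 (85.8 TPM), Cyp4b1 (76.2 TPM), Cyp2d26 (76.1 TPM) and Cyp2j6 (73.7 TPM). Over all ages 35 members had a mean above 1 TPM and 20 a mean above 10 TPM. The classical inducible P450s of the liver were almost silent, with 6 counts of Cyp1a2, 166 of Cyp2b10 and 95 of Cyp4a10 summed over all 83 mice.

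**Figure D1:**
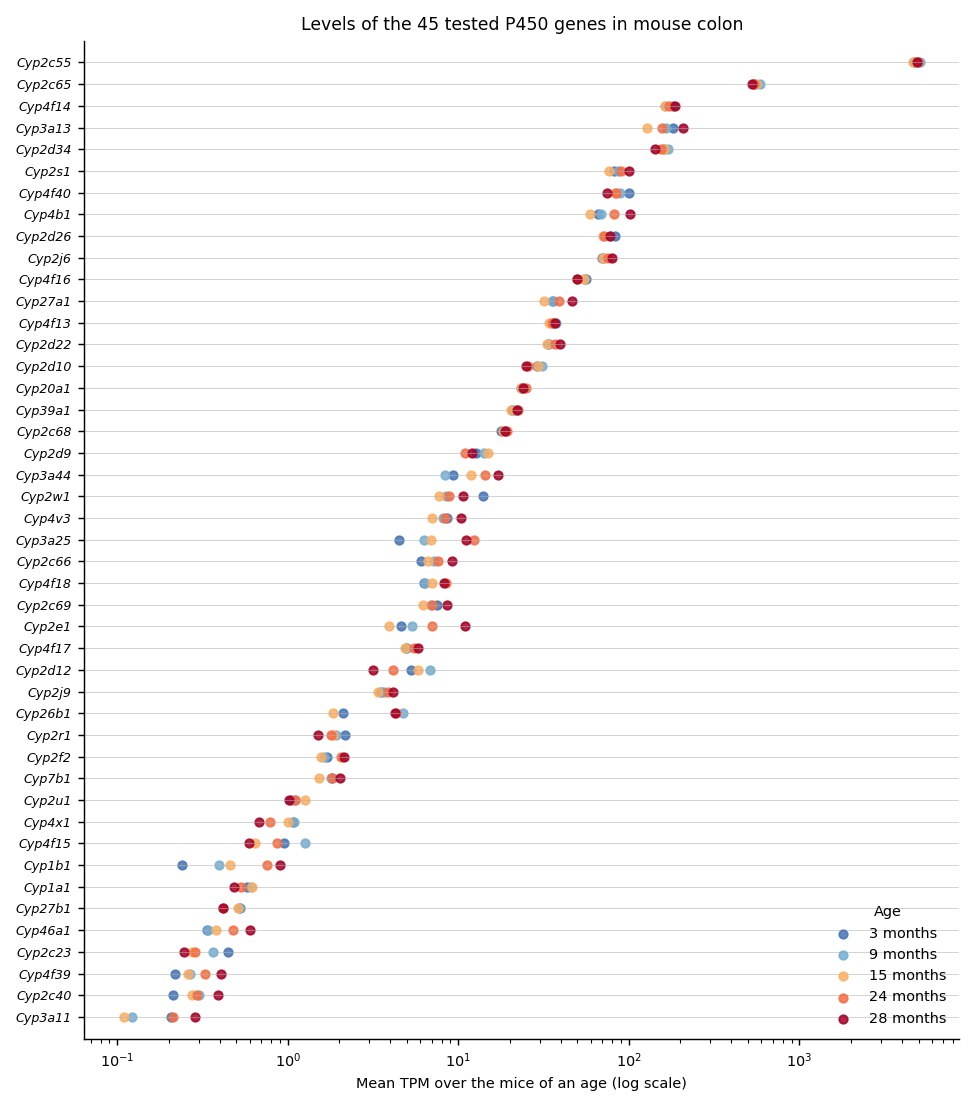
Mean TPM (log scale) of the 45 tested P450 genes, one row per gene, with a point for the mice of each of the 5 ages. Cyp2c55 stands apart at the top with a mean of 4868 TPM over all mice and Cyp2c65 follows with 552.6 TPM.

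Age differences were tested with edgeR's quasi-likelihood test in 1 model of age and library batch over all 83 mice, with Benjamini-Hochberg adjustment over all 18325 genes and a threshold of 0.1 on the adjusted p. Any difference between the 5 ages was called for 34 of the 45 tested members, which is 75.6%, where 54.9% of all tested genes were called. Between 28 and 3 months, 19 members were higher and 10 were lower. Over all tested genes, 23.5% were called higher and 25.9% lower in this comparison, against 42.2% and 22.2% of the tested members. The median log2 fold change of the tested members was 0.12, and that of all tested genes was -0.01. Since members were chosen as a family, these shares are given as a description without a test of the family as a whole.

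Split by neighbouring ages, 5 members were called between 9 and 3 months, 3 higher and 2 lower. Of all tested genes 8.69% were called there, 3.64% higher and 5.05% lower. Between 24 and 15 months 14 members were called, 9 higher and 5 lower, where 13.5% of all tested genes were called, 6.28% higher and 7.24% lower. Between 28 and 24 months 6 members were called, 3 higher and 3 lower, where 11.7% of all tested genes were called, 5.66% higher and 6.01% lower. Between 15 and 9 months edgeR called 0 members, where 0.431% of all tested genes were called. In that comparison 8 of the 45 tested members had an unadjusted p below 0.05 (edgeR), as did 1683 of all 18325 tested genes. DESeq2 called 1 member, Cyp3a13. These comparisons share the mice of the ages they have in common and are not independent of each other. Without the 7 mice low in smooth muscle markers, 26 members were called at 28 against 3 months, 2 at 9 against 3 months and 14 at 24 against 15 months. Without the 3 mice with acinar markers these counts were 27, 5 and 11. Output genes of the circadian clock moved in the same comparison, and 8 of 10 were higher and 1 was lower at 28 than at 3 months (median log2 fold change 1.30). With a score of these genes as a covariate, chosen after seeing the data, 22 members were called at 28 against 3 months. The calls of Cyp27a1, Cyp4v3, Cyp4f16, Cyp2c40, Cyp3a44, Cyp2e1 and Cyp27b1 were lost, although Cyp3a44 (0.72), Cyp2e1 (1.02) and Cyp27b1 (-0.37) kept most of their log2 fold change. The summed clock genes ranged from 164.3 to 325.1 CPM at 3 months and from 168.2 to 731.5 CPM at 28 months, so the ages overlapped in part.

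**Figure D2:**
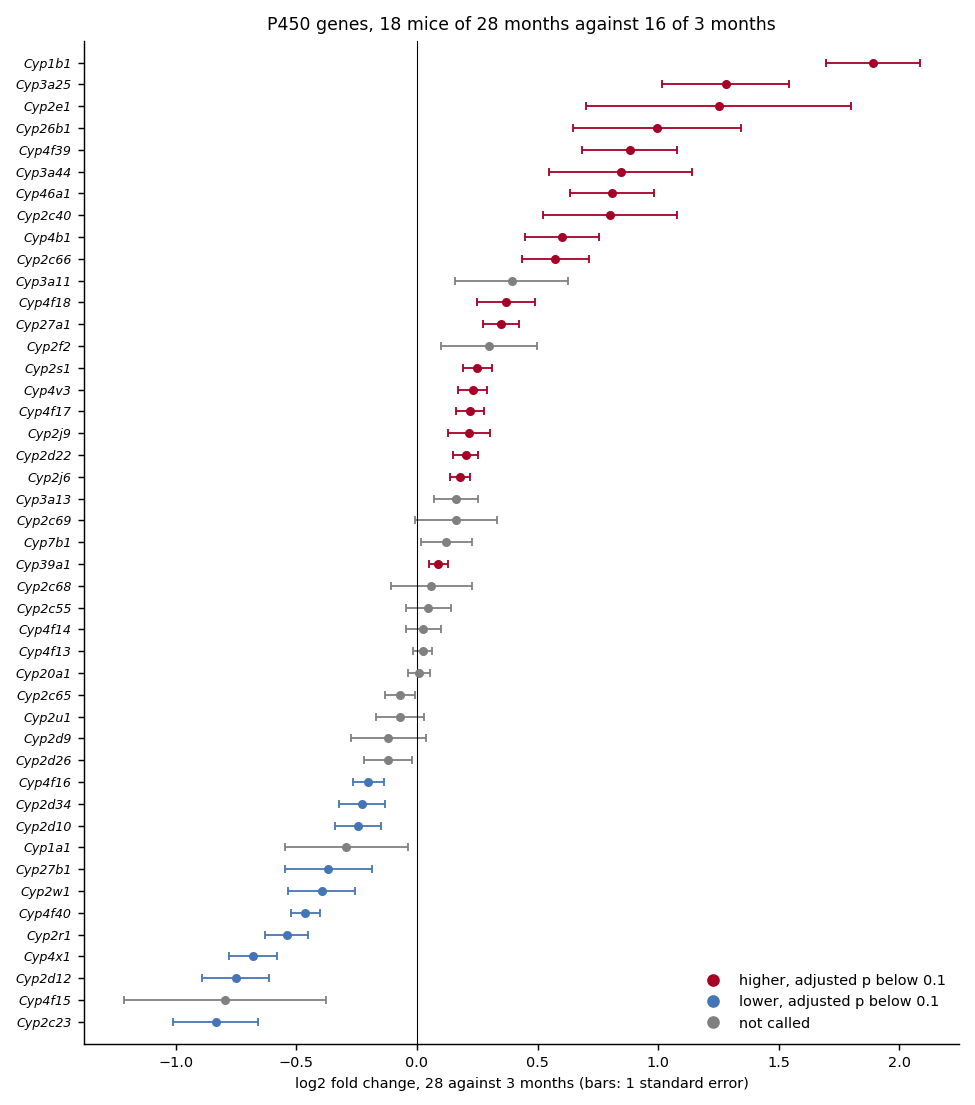
Log2 fold change at 28 against 3 months for the 45 tested P450 genes, with bars of 1 standard error from edgeR's quasi-likelihood model (16 mice of 3 months and 18 of 28 months). The 19 members called higher reach from Cyp39a1 at 0.09 to Cyp1b1 at 1.89, and the 10 called lower reach down to Cyp2c23 at -0.84, which passed the filter on low counts through the youngest mice.

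The CYP1 enzymes oxidise polycyclic aromatic hydrocarbons and estrogens. Of the 3 members Cyp1b1 rose with age, Cyp1a1 did not pass the test and Cyp1a2 was too low to be tested. Cyp1b1 lies on the minus strand at chr17:79701537-79715061 of GRCm38. Its level at 3 months had a lowest value of 0.233 CPM, a median of 0.408 and a highest of 0.993. At 28 months the lowest was 0.611 CPM, the median 1.56 and the highest 2.84. The ranges overlapped, but 15 of the 18 oldest mice lay above the highest mouse of 3 months. The log2 fold change was 1.89 ± 0.19 (SE), a 3.71-fold rise (edgeR, adjusted p = 4.31e-13), and it lay between 1.87 and 2.00 in the 3 library batches.

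Between neighbouring ages Cyp1b1 was called in 2 comparisons, although a departure from a straight line was not called (edgeR, adjusted p = 0.578). It was higher at 9 than at 3 months by 0.76 ± 0.20 on the log2 scale (edgeR, adjusted p = 0.0181) and at 24 than at 15 months by 0.72 ± 0.19 (edgeR, adjusted p = 0.00958), where all 17 mice of 24 months lay above the median of the 15-month mice. The other steps were not called, with 0.18 at 15 against 9 months (edgeR, adjusted p = 0.834) and 0.22 at 28 against 24 months (edgeR, adjusted p = 0.482). No mouse had more than 2.84 CPM. Endothelial and macrophage markers moved in the same direction, and not all other marker lists did so. Of 6 endothelial markers 5 were higher at 28 than at 3 months (median log2 fold change 0.20), and their sum ranged from 104.9 to 127.0 CPM in the youngest and from 118.3 to 167.7 CPM in the oldest mice. Of 6 macrophage markers 5 were higher (median log2 fold change 0.36), with sums from 147.2 to 231.5 CPM and from 140.1 to 346.2 CPM. Of 6 adipocyte markers 2 were higher (median log2 fold change 0.49), and of 6 smooth muscle markers 0 were called (0.16). Of 6 fibroblast markers 1 was higher and 2 were lower (-0.06), and of 6 B cell and plasma cell markers 2 were lower (-0.14). Epithelial and goblet cell markers are given above. The part of these cell types in the result was not tested.

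Cyp1a1, the most inducible AhR target, varied widely between mice, and its age difference was not called. From the youngest to the oldest age its medians were 0.493, 0.427, 0.522, 0.424 and 0.398 CPM. At 28 against 3 months its log2 fold change was -0.29 ± 0.25 (SE; edgeR, adjusted p = 0.366). A single 9-month mouse had 1.91 CPM, the highest value of Cyp1a1 in any mouse, and the lowest value, 0.0775 CPM, was also found at 9 months. Of 7 AhR target genes outside the family, 2 were called higher at 28 than at 3 months, where 23.5% of all tested genes were called higher. These were Gsta1, a glutathione transferase, by 1.11 ± 0.10 (edgeR, adjusted p = 8.54e-16) and Nqo1, a quinone reductase, by 0.20 ± 0.07 (edgeR, adjusted p = 0.0164). The AhR repressor Ahrr had a value of 0.17 ± 0.11 (edgeR, adjusted p = 0.215).

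The CYP2C subfamily had 14 members, of which 7 were tested. Cyp2c55, at chr19:39007019-39042693, passed no age test. Its level ranged from 1191 to 4034 CPM at 3 months (median 3289), from 2296 to 3825 CPM at 15 months (median 3102) and from 2402 to 5120 CPM at 28 months (median 3059). These ranges overlapped widely. Its log2 fold change at 28 against 3 months was 0.05 ± 0.09 (SE; edgeR, adjusted p = 0.71), and no difference over the 5 ages was called (edgeR, adjusted p = 0.708). The lowest value belonged to the 3-month mouse numbered 14, which also had the highest level of Cyp2d9 of all mice, 29.9 CPM.

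Cyp2c65, the neighbour of Cyp2c55 and also an arachidonic acid oxygenase, differed over the 5 ages (edgeR, adjusted p = 0.0222). From the youngest to the oldest age its medians were 342, 386, 366, 338 and 306 CPM. The median was lowest in the oldest mice, although the highest single value, 514.5 CPM, was also among them. At 28 against 3 months the log2 fold change was -0.07 ± 0.06 (SE; edgeR, adjusted p = 0.382), which was not called.

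Cyp2c66, a further CYP2C gene, rose. Its level was 1.84 to 6.08 CPM at 3 months (median 3.78) and 2.90 to 9.09 CPM at 28 months (median 6.07), and 9 of the 18 oldest mice lay above all mice of 3 months. This is a log2 fold change of 0.57 ± 0.14 (SE; edgeR, adjusted p = 0.000522). Cyp2c65 and Cyp2c66 share 7.82% and 7.35% of their transcript sequence in windows of 100 bases, and read pairs from these stretches cannot be assigned to either gene with certainty.

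Cyp2c23, an epoxygenase known from kidney, passed the filter through the youngest mice, so its values are a description. It had a log2 fold change of -0.84 ± 0.18 (SE), from a median of 0.329 CPM at 3 months (range 0.154 to 0.456) to 0.165 CPM at 28 months (range 0.0423 to 0.274). All 18 oldest mice lay below the 3-month median. Cyp2c40 had a log2 fold change of 0.80 ± 0.28 (SE), but its medians were only 0.160 and 0.184 CPM and 34.4% of its windows of 100 bases also occur in Cyp2c67, Cyp2c68 or Cyp2c69, so its value is uncertain. With the clock score as a covariate it was 0.03. Cyp2c68 and Cyp2c69, with means of 18.6 and 7.27 TPM, were not called between neighbouring ages or at 28 against 3 months (log2 fold changes 0.06 ± 0.17 and 0.16 ± 0.17 at 28 against 3 months), and 19.8% and 35.4% of their windows are shared within the same group.

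The CYP2D genes, enzymes that act on amine drugs in humans and have several copies in the mouse, moved in both directions. Of 8 members 6 were tested, and at 28 against 3 months Cyp2d10, Cyp2d12 and Cyp2d34 were lower and Cyp2d22 was higher. In this comparison 49.4% of all tested genes were called. Cyp2d12 had the largest fall. It ranged from 4.90 to 10.6 CPM at 3 months (median 6.03), from 4.14 to 13.5 CPM at 9 months (median 8.80) and from 2.21 to 5.86 CPM at 28 months (median 3.67). All 18 oldest mice lay below the 3-month median and 13 of them below the lowest mouse of 3 months.

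The course of Cyp2d12 was not a straight line (edgeR, adjusted p = 0.000466). It was higher at 9 than at 3 months by 0.39 ± 0.14 on the log2 scale (edgeR, adjusted p = 0.0846), and then fell by 0.54 from 15 to 24 months (edgeR, adjusted p = 0.00945) and by 0.41 from 24 to 28 months (edgeR, adjusted p = 0.0494). At 28 against 3 months it fell by 0.75 (SE 0.14; edgeR, adjusted p = 6.94e-06), with -0.66, -0.58 and -0.92 in the 3 batches. The rise at 9 months was not called under 4 of 13 alternatives (values between 0.37 and 0.41, adjusted p up to 0.264). The fall from 24 to 28 months was not called under 2 of 13, the distal colon and clock scores as covariates (values between -0.50 and -0.32, adjusted p up to 0.345).

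Cyp2d9 and Cyp2d10 fell between 15 and 24 months, by 0.49 (SE 0.16; edgeR, adjusted p = 0.0398) and by 0.25 (SE 0.10; edgeR, adjusted p = 0.092). The medians of Cyp2d9 were 13.99 CPM at 15 months and 8.84 CPM at 24 months, and 16 of the 17 mice of 24 months lay below the earlier median. Cyp2d10 and Cyp2d9 share sequence with Cyp2d11 and Cyp2d12. Cyp2d34, the most abundant of the group, fell by 0.23 at 28 against 3 months (SE 0.10; edgeR, adjusted p = 0.0462), a call lost with the distal colon score as a covariate and with only the 2 ages fitted (adjusted p up to 0.137), with values between -0.28 and -0.17 over 13 alternatives. Cyp2d22 rose by 0.20 ± 0.05 (edgeR, adjusted p = 0.000934). Across the 83 mice, after the means of age and batch were removed, Cyp2d9 was higher where the score of distal colon markers was higher (Pearson's r = 0.29, adjusted permutation p = 0.0104; Spearman's rho = 0.245, adjusted permutation p = 0.0346), a relation chosen after its values were seen. It was 0.35, 0.32 and 0.25 within the batches and 0.35 without the 2 mice with the most extreme scores. The fall of Cyp2d10 between 15 and 24 months was not called under 5 of 13 alternatives (adjusted p up to 0.175), while its value stayed between -0.26 and -0.22. Its fall at 28 against 3 months was not called under 3 of 13 (adjusted p up to 0.187), with values between -0.39 and -0.15. Within the batches this fall was uneven, with -0.027, -0.141 and -0.477 for Cyp2d10, and that of Cyp2d34 was -0.043, -0.185 and -0.372.

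**Figure D3:**
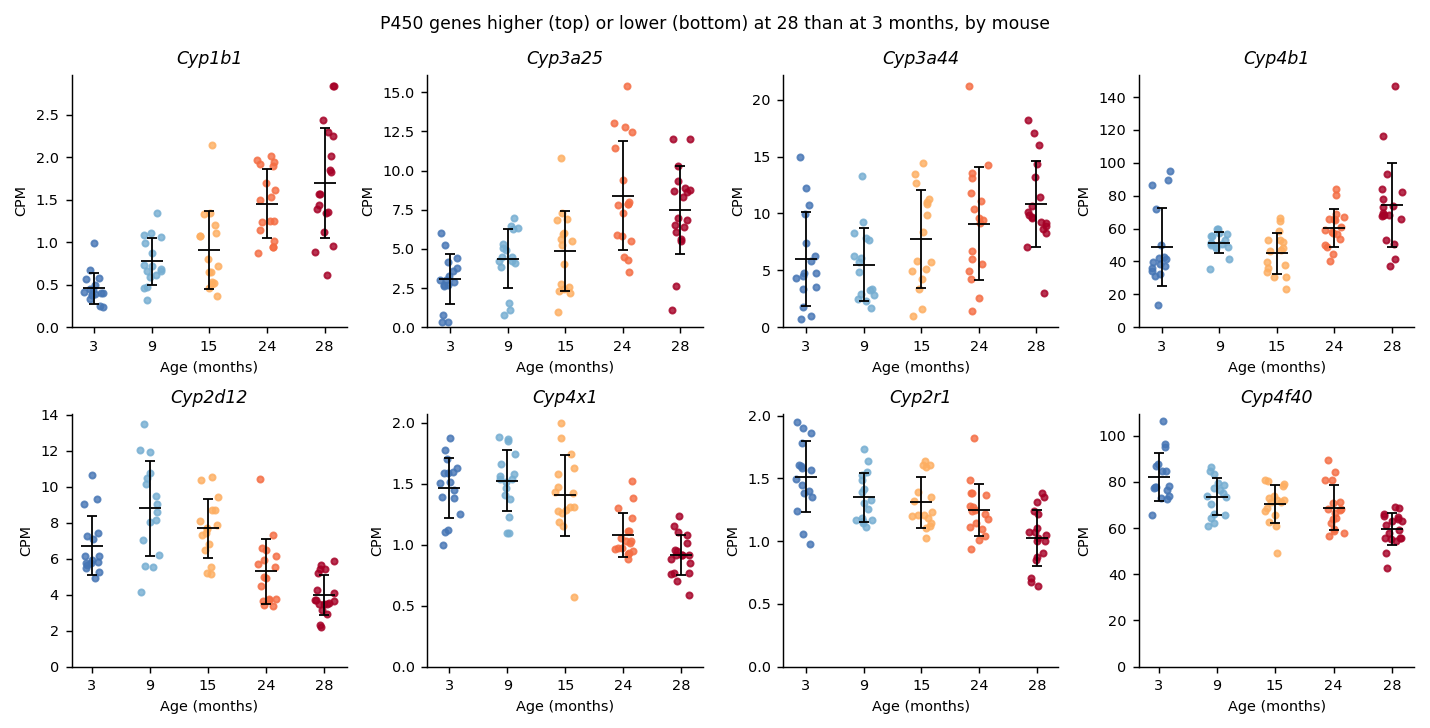
CPM of 8 P450 genes in each of the 83 mice by age in months (16, 16, 16, 17 and 18 mice), with the mean as a line and bars of 1 SD. In the upper row Cyp1b1, Cyp3a25, Cyp3a44 and Cyp4b1 are higher at 28 than at 3 months with overlapping ranges, and in the lower row all 18 mice of 28 months lie below the 3-month median for Cyp2d12, Cyp4x1, Cyp2r1 and Cyp4f40.

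The CYP3A enzymes oxidise steroids, bile acids and many drugs and are classical targets of the pregnane X receptor. Of the 8 members 4 were tested. An age difference was called for Cyp3a13, Cyp3a25 and Cyp3a44, where 54.9% of all tested genes were called. It was also called for Cyp3a11, which passed the filter on low counts through the mice in which it was high. Cyp3a25 and Cyp3a44 were higher at 28 than at 3 months, while Cyp3a13 and Cyp3a11 had their lowest mean at 15 months. None of the 4 was called lower at 28 than at 3 months.

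Cyp3a25, at chr5:145977194-146009618, ranged from 0.342 to 6.02 CPM at 3 months (median 3.02), from 3.53 to 15.4 CPM at 24 months (median 7.84) and from 1.12 to 12.04 CPM at 28 months (median 7.64). At 28 months 14 of 18 mice lay above all mice of 3 months. This gave a log2 fold change of 1.28 ± 0.26 (SE; edgeR, adjusted p = 4.64e-05), which was 0.98, 1.64 and 1.28 in the batches. Between neighbouring ages it was called at 24 against 15 months (0.78 ± 0.26; edgeR, adjusted p = 0.0474), where 14 of 17 mice exceeded the earlier median, and the value at 28 against 24 months was -0.13 ± 0.25 (edgeR, adjusted p = 0.81). Cyp3a25 shares 6.79% of its windows of 100 bases with Cyp3a59, which had 322 counts over all mice. Its relation to the distal colon score across mice did not pass the test (Pearson's r = -0.04, adjusted permutation p = 0.695; Spearman's rho = -0.02, adjusted permutation p = 0.854).

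Cyp3a44 was more variable. It ranged from 0.704 to 15.0 CPM at 3 months (median 4.79) and from 3.00 to 18.2 CPM at 28 months (median 9.76), and only 3 of 18 oldest mice exceeded all mice of 3 months. Its log2 fold change was 0.84 ± 0.29 (SE; edgeR, adjusted p = 0.0161), with no call at any single step between neighbouring ages. With the clock score as a covariate the value was 0.72 and was not called (edgeR, adjusted p = 0.119). Cyp3a44 shares 5.37% of its windows of 100 bases with other genes, among them Cyp3a41a and Cyp3a11.

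Cyp3a13 followed a different course and departed from a straight line in age (edgeR, adjusted p = 8.1e-06). Its medians were 177 CPM at 3 months (range 117 to 243), 130 CPM at 15 months (range 101 to 168) and 183 CPM at 28 months (range 135 to 275). It was lower at 15 than at 3 months by 0.46 on the log2 scale (edgeR, adjusted p = 0.000449), where 7.75% of all tested genes were called. It was higher at 28 than at 15 months by 0.62 ± 0.09 (edgeR, adjusted p = 1.55e-07), where 42.4% were called. The part of this rise from 24 to 28 months, 0.38, was 0.03 with the clock score as a covariate (edgeR, adjusted p = 0.993). Between the youngest and oldest mice the value was 0.16 ± 0.09 and was not called (edgeR, adjusted p = 0.144). Cyp3a11, at far lower levels, had a mean of 0.343 CPM at 3 months, 0.186 CPM at 15 months and 0.471 CPM at 28 months. Its log2 fold change was -0.76 ± 0.27 (SE) at 9 against 3 months, between -0.89 and -0.68 over 11 alternatives, and 0.90 ± 0.26 (SE) at 24 against 15 months.

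**Figure D4:**
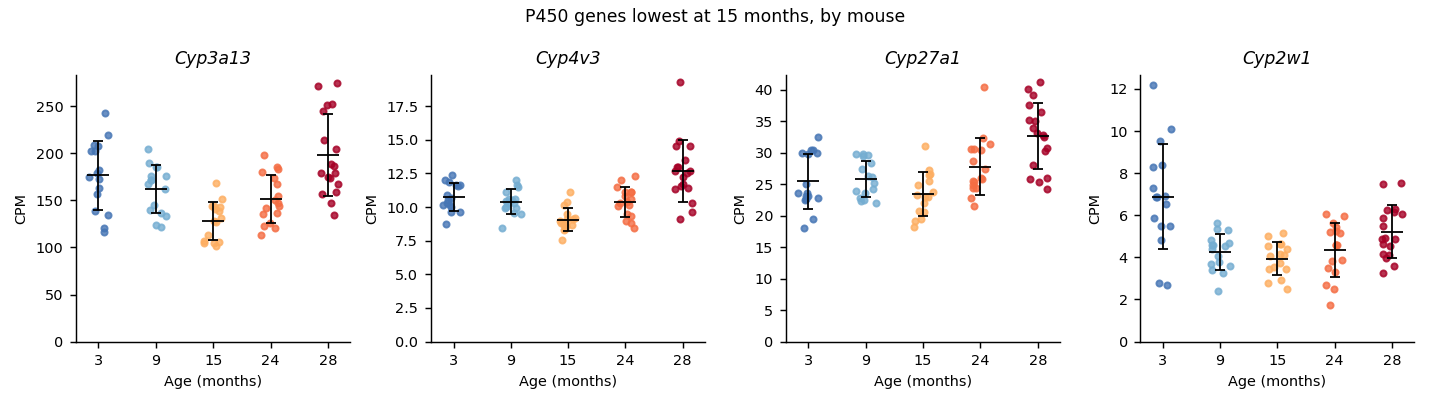
CPM of Cyp3a13, Cyp4v3, Cyp27a1 and Cyp2w1 in each of the 83 mice by age in months (16, 16, 16, 17 and 18 mice), with the mean as a line and bars of 1 SD. Each gene has its lowest mean at 15 months, and Cyp2w1 differs from the others in that its highest mean, 6.88 CPM, is at 3 months.

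Cyp4v3, a hydroxylase of medium-chain fatty acids, also had its lowest mean at 15 months. Its medians were 10.6 CPM at 3 months (range 8.76 to 12.4), 8.87 CPM at 15 months (range 7.53 to 11.1) and 12.6 CPM at 28 months (range 9.13 to 19.3). The departure from a straight line had an adjusted p of 4.60e-06 (edgeR). The values were 0.20 ± 0.06 at 24 against 15 months (edgeR, adjusted p = 0.034) and 0.28 ± 0.06 at 28 against 24 months (edgeR, adjusted p = 0.00113), and 10 of 18 oldest mice lay above all mice of 24 months. At 28 against 3 months the rise of 0.23 ± 0.06 (edgeR, adjusted p = 0.00109) was 0.41 and 0.28 in batches 1 and 3 and -0.009 in batch 2. With the clock score as a covariate this value was 0.09 and was not called (edgeR, adjusted p = 0.364). The value at 28 against 24 months was then 0.13 and was not called either (edgeR, adjusted p = 0.75).

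The CYP4 families hydroxylate the end of fatty acid chains and of leukotrienes. Among 9 CYP4F genes, 8 were tested. At 28 against 3 months Cyp4f17 and Cyp4f18 were higher and Cyp4f16 and Cyp4f40 lower, where 49.4% of all tested genes were called. Cyp4f39 was also called higher, but it passed the filter on low counts through the mice of the older ages. Cyp4f40 had the smallest adjusted p among the members that fell. Its medians were 78.0 CPM at 3 months (range 65.5 to 106), 74.5 CPM at 9 months (range 61.0 to 86.3), 67.7 CPM at 24 months (range 56.6 to 89.3) and 60.4 CPM at 28 months (range 42.8 to 69.2). Here 15 of the 18 oldest mice lay below the lowest mouse of 3 months. It fell by 0.46 on the log2 scale (SE 0.06; edgeR, adjusted p = 1.85e-09).

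Cyp4f14, the most abundant CYP4F gene, had medians between 130 and 151 CPM and was not called over the 5 ages (edgeR, adjusted p = 0.27), with a log2 fold change of 0.03 ± 0.07 at 28 against 3 months. Cyp4f16 fell by 0.20 (SE 0.06; edgeR, adjusted p = 0.00762), but with the clock score as a covariate its value was -0.02 and was not called (edgeR, adjusted p = 0.874). Cyp4f18, a leukotriene hydroxylase of myeloid cells, rose by 0.37 ± 0.12 (edgeR, adjusted p = 0.011), beside the rise of the macrophage markers given above, and by 0.67 with the clock score as a covariate (edgeR, adjusted p = 0.000137). Cyp4f39, which makes the fatty acids of skin ceramides, had a log2 fold change of 0.88 ± 0.20 (SE) at medians of 0.202 and 0.369 CPM, which is a description because it passed the filter through the mice of the older ages. None of the 7 CYP4A genes, which are targets of the fatty acid receptor PPAR alpha, was high enough to be tested.

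Outside CYP4F, Cyp4b1 rose and Cyp4x1 fell. Cyp4b1, which activates several plant toxins, ranged from 13.5 to 95.2 CPM at 3 months (median 40.7) and from 37.1 to 147 CPM at 28 months (median 69.1). Only 2 of 18 oldest mice exceeded all mice of 3 months, but 17 of 18 lay above the 3-month median. It had a log2 fold change of 0.60 ± 0.15 (SE; edgeR, adjusted p = 0.000836), which was 0.39 with the clock score as a covariate (edgeR, adjusted p = 0.0927). Cyp4x1, a fatty acid enzyme best known from brain, had medians of 1.51 CPM at 3 months (range 0.993 to 1.87), 1.37 CPM at 15 months (range 0.575 to 2.00) and 0.914 CPM at 28 months (range 0.590 to 1.23). It fell by 0.38 between 15 and 24 months (SE 0.10; edgeR, adjusted p = 0.00897) and by 0.68 between 3 and 28 months (SE 0.10; edgeR, adjusted p = 2.90e-08), and all 18 oldest mice lay below the 3-month median.

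Several other CYP2 genes differed. Cyp2w1, which is known from fetal colon and colon tumours, dropped early. It ranged from 2.67 to 12.2 CPM at 3 months (median 6.85) and from 2.41 to 5.65 CPM at 9 months (median 4.46), so that all 16 mice of 9 months lay below the 3-month median. The change was a fall of 0.69 on the log2 scale (SE 0.14; edgeR, adjusted p = 0.000989), with -0.84, -0.63 and -0.58 in the batches, and it was called in each of 13 alternatives (adjusted p at most 0.025). Later values rose in part, and at 28 months the median was 4.89 CPM.

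Cyp2s1, an extrahepatic P450 of epithelia, was higher at 28 months (range 118 to 206 CPM, median 159) than at 3 months (range 106 to 175 CPM, median 134), by 0.25 ± 0.06 on the log2 scale (edgeR, adjusted p = 0.000681). Cyp2j6 and Cyp2j9, epoxygenases of arachidonic and linoleic acid, rose by 0.18 ± 0.04 (edgeR, adjusted p = 0.000313) and 0.22 ± 0.09 (edgeR, adjusted p = 0.0376). The call of Cyp2j9 was lost without the 7 mice low in smooth muscle markers (0.09; edgeR, adjusted p = 0.404) and with epithelium and smooth muscle scores as covariates (edgeR, adjusted p = 0.328). Cyp2u1, a fatty acid hydroxylase, peaked at 15 months with a median of 2.27 CPM, against 1.86 CPM at 3 months and 1.73 CPM at 28 months (any age difference, edgeR, adjusted p = 0.0136). Cyp2f2 was not called over the 5 ages (edgeR, adjusted p = 0.211).

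Cyp2e1, the ethanol-oxidising P450 that is abundant in liver and fat, had the largest log2 fold change of the tested members at 28 against 3 months after Cyp1b1 and Cyp3a25, with a wide spread between mice. It ranged from 0.604 to 12.4 CPM at 3 months (median 2.00) and from 0.166 to 49.95 CPM at 28 months (median 4.09). A single 28-month mouse held 36.3% of the summed CPM of its group. Its log2 fold change was 1.25 ± 0.55 (SE; edgeR, adjusted p = 0.058), with 0.33, 1.86 and 2.25 in the batches. The call was lost under 5 of 12 alternatives (values between 0.54 and 1.42, adjusted p up to 0.291).

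The level of Cyp2e1 followed the markers of adipocytes. After the means of age and batch were removed, Cyp2e1 and the score of 6 adipocyte markers had a Pearson's r of 0.95 (adjusted permutation p = 4e-05, the smallest value possible) and a Spearman's rho of 0.95 (adjusted permutation p = 4e-05) over the 83 mice. Within the batches r was 0.95, 0.95 and 0.94, and it was 0.95 without the 2 mice with the most extreme scores. This pair was chosen after the values were seen. The summed adipocyte markers ranged from 23.2 to 153 CPM at 3 months (median 47.2) and from 31.2 to 298.5 CPM at 28 months (median 85.7), with 2 of 6 markers called higher at 28 months. With the adipocyte score as a covariate the log2 fold change of Cyp2e1 was 0.54 (edgeR, adjusted p = 0.0184), and without 3 mice with pancreatic acinar markers it was 0.77 (edgeR, adjusted p = 0.225). The summed hepatocyte markers reached at most 7.52 CPM in any mouse.

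**Figure D5:**
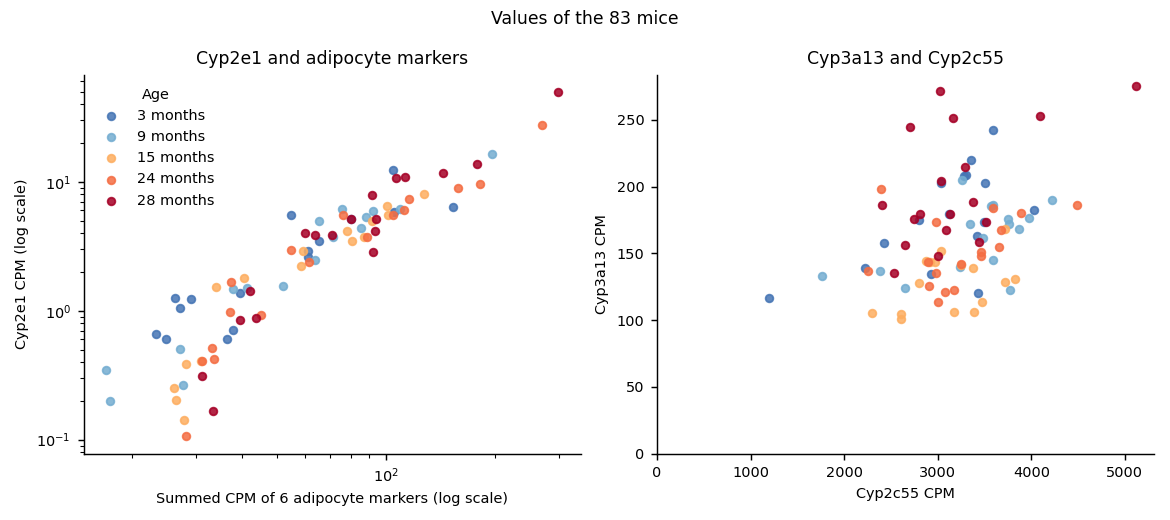
Values of the 83 mice, coloured by age. On the left Cyp2e1 CPM is plotted against the summed CPM of 6 adipocyte markers (both log scales), with the highest mouse at 49.95 CPM, and on the right Cyp3a13 CPM against Cyp2c55 CPM (linear scales), where the 3-month mouse lowest in Cyp2c55 has 1191 CPM.

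Members that handle sterols were modest in level. Cyp27a1, the mitochondrial enzyme that oxidises the side chain of cholesterol, had medians of 23.6 CPM at 3 months (range 18.1 to 32.5), 23.1 CPM at 15 months (range 18.1 to 31.1) and 33.0 CPM at 28 months (range 24.2 to 41.2). All 18 oldest mice lay above the 3-month median and 11 above all mice of 3 months. It rose by 0.24 ± 0.08 from 15 to 24 months (edgeR, adjusted p = 0.0316) and by 0.22 ± 0.07 from 24 to 28 months (edgeR, adjusted p = 0.0459), and by 0.35 ± 0.07 from 3 to 28 months (edgeR, adjusted p = 7.96e-05). With the clock score as a covariate the last value was 0.15 and was not called (edgeR, adjusted p = 0.172). The rise from 24 to 28 months was then 0.01 and was not called either (edgeR, adjusted p = 0.996). Cyp46a1, the cholesterol hydroxylase of neurons, rose by 0.81 ± 0.17 (edgeR, adjusted p = 0.000102) from a median of 0.410 to 0.599 CPM. Cyp39a1, which acts on oxysterols, was higher by 0.09 ± 0.04 (edgeR, adjusted p = 0.0608), a call lost under 3 of 13 alternatives (values between 0.07 and 0.11, adjusted p up to 0.147), and Cyp7b1 had a value of 0.12 and was not called (edgeR, adjusted p = 0.363). The bile acid genes Cyp7a1 and Cyp8b1 had 1 and 169 counts in all mice together.

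In vitamin D metabolism, Cyp2r1, which makes the circulating form, fell from a median of 1.53 CPM at 3 months (range 0.974 to 1.95) to 1.04 CPM at 28 months (range 0.642 to 1.38). All 18 oldest mice lay below the 3-month median. The fall was 0.54 on the log2 scale (SE 0.09; edgeR, adjusted p = 7.94e-07), with -0.50, -0.57 and -0.52 in the batches. Cyp27b1, which makes the hormone, fell by 0.37 (SE 0.18; edgeR, adjusted p = 0.0923), a call that 9 of 12 alternatives did not return (values between -0.38 and -0.28, adjusted p up to 0.227). Cyp24a1, which degrades it, had 98 counts in all mice together.

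Cyp26b1 breaks down retinoic acid. Its medians were 3.17 CPM at 3 months (range 1.43 to 8.03), 2.93 CPM at 9 months (range 1.57 to 67.1), 2.64 CPM at 15 months (range 1.38 to 7.13), 7.01 CPM at 24 months (range 2.83 to 15.2) and 7.39 CPM at 28 months (range 1.81 to 15.4). The medians of the 3 younger groups lay close together and those of the 2 older groups were higher. From 15 to 24 months it rose by 1.23 ± 0.35 on the log2 scale (edgeR, adjusted p = 0.0211), all 17 mice of 24 months lay above the 15-month median, and the batches gave 1.11, 1.12 and 1.34. At 28 against 3 months the rise was 0.99 ± 0.35 (edgeR, adjusted p = 0.0165).

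The difference of Cyp26b1 at 9 against 3 months, 1.07 ± 0.36 (edgeR, adjusted p = 0.0635), rested on the 9-month mice numbered 14 and 16, which had 23.3 and 67.1 CPM. Without them it was -0.24 (edgeR, adjusted p = 0.667). Of 9 tested genes of retinoid handling, 4 were higher and 1 lower at 28 than at 3 months. Of all tested genes 23.5% were called higher and 25.9% lower there. The retinaldehyde dehydrogenase Aldh1a3, which makes retinoic acid, rose by 0.81 ± 0.08 (edgeR, adjusted p = 6.85e-13), Rdh10 by 0.30 ± 0.04 (edgeR, adjusted p = 1.54e-08) and Aldh1a1 by 0.27 ± 0.08 (edgeR, adjusted p = 0.00446). The median log2 fold change of all 9 genes was 0.23. Cyp26a1 and Cyp26c1 had 108 and 73 counts over all mice.

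The 6 steroid hormone genes were not tested. Cyp11a1, which starts steroid synthesis, had 332 counts in 79 of 83 mice and a highest count of 15 in a mouse. Cyp17a1 had 46 counts, Cyp21a1 22, Cyp11b1 4, Cyp19a1 3 and Cyp11b2 1. Such counts do not allow a statement on age. The orphan enzyme Cyp20a1 was expressed at 23.9 TPM and was not called, with a log2 fold change of 0.01 ± 0.04 at 28 against 3 months (edgeR, adjusted p = 0.903).

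A course that departed from a straight line was called for 10 members (22.2% of those tested), where 16.2% of all tested genes were called. These were Cyp2d12, Cyp2s1, Cyp2u1, Cyp2w1, Cyp3a13, Cyp4v3, Cyp4x1, Cyp26b1 and Cyp27a1, and also Cyp3a11, which passed the filter on low counts through the mice in which it was high. Their shapes differed, since the mean of Cyp2u1 was highest at 15 months, those of Cyp2d12 and Cyp4x1 were highest at 9 months and lowest at 28 months, and those of the other 7 genes were lowest at 15 months. Among these 7 the highest mean was at 3 months in Cyp2w1, at 9 months in Cyp26b1, where single mice were high, and at 28 months in the others.

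The clock output genes moved at 28 against 24 months too. Again 8 of 10 were higher and 1 was lower, with a median log2 fold change of 1.25. The 6 members called in this comparison were Cyp3a13 (0.38 ± 0.09; edgeR, adjusted p = 0.00422), Cyp4v3 and Cyp27a1, which were higher, and Cyp2d12, Cyp2r1 (-0.26 ± 0.09; edgeR, adjusted p = 0.0511) and Cyp4f40 (-0.21 ± 0.06; edgeR, adjusted p = 0.0207), which were lower. With the clock score as a covariate, 0 of these members were called by edgeR and 14 of all tested genes, against 2139 without it. Over 13 alternatives the value of Cyp2r1 stayed between -0.30 and -0.22, of which 4 did not call it, and that of Cyp2d12 between -0.50 and -0.32, of which 2 did not call it. The value of Cyp3a13 then was 0.03 (edgeR, adjusted p = 0.993) and that of Cyp27a1 0.01 (edgeR, adjusted p = 0.996). Cyp4v3 had 0.13 and Cyp4f40 -0.11, while Cyp2r1 with -0.22 and Cyp2d12 with -0.50 kept most or all of their size (edgeR, adjusted p between 0.345 and 0.817). The summed clock genes ranged from 162.5 to 395.9 CPM at 24 months, and the part of the clock in these differences was not tested beyond this covariate.

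Of all tested genes 49.4% were called at 28 against 3 months, 23.5% higher and 25.9% lower, and the counts in this paragraph stand beside that share. Among the receptors that control the family, 6 of 17 were called, 3 higher and 3 lower. Nr1i2 was higher by 0.17 ± 0.04 (edgeR, adjusted p = 0.000769) and Pparg by 0.24 ± 0.05 (edgeR, adjusted p = 0.000115), while Ppard was lower by 0.42 (SE 0.05; edgeR, adjusted p = 1.64e-11). In the list of electron donors and heme supply, 3 of 17 genes were higher and 5 lower. Uros, an enzyme of heme synthesis, fell by 0.44 (SE 0.04; edgeR, adjusted p = 6.96e-14) and Cpox by 0.17 (SE 0.04; edgeR, adjusted p = 0.000707). Fech, also of heme synthesis, rose by 0.185 ± 0.035 (edgeR, adjusted p = 1.15e-05), and the cytochrome b5 reductase Cyb5r3 rose by 0.23 ± 0.04 (edgeR, adjusted p = 1.18e-06). The epoxide hydrolases, which process the epoxides that CYP2C and CYP2J enzymes form, were called higher in 3 of 4 cases, with Ephx1 at 0.29 ± 0.06 (edgeR, adjusted p = 1.06e-05) and Ephx2 at 0.23 ± 0.06 (edgeR, adjusted p = 0.000346).

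The P450 genes named outside the pattern of the family were all 3 called higher at 28 than at 3 months. Ptgis, the prostacyclin synthase, rose by 0.62 ± 0.12 (edgeR, adjusted p = 1.3e-05), Tbxas1, the thromboxane synthase, by 0.51 ± 0.10 (edgeR, adjusted p = 1.8e-05) and Cyp51, of cholesterol synthesis, by 0.18 ± 0.08 (edgeR, adjusted p = 0.0689). Of 8 target genes of PPAR alpha outside the family, 2 were higher, Pdk4 by 0.47 ± 0.17 (edgeR, adjusted p = 0.0193) and Cpt1a by 0.12 ± 0.05 (edgeR, adjusted p = 0.0609). Over all tested genes 49.4% were called in this comparison.

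Relations across mice were computed for 6 pairs after the means of age and library batch were removed (log2 CPM, 83 mice, two-sided permutation test with 100000 resamples, adjusted over the 6 pairs, of which 5 are given). Cyp2c55 and Cyp3a13 rose and fell together, with Pearson's r = 0.49 (adjusted permutation p = 6e-05, the smallest value possible) and Spearman's rho = 0.45 (adjusted permutation p = 0.00018), with 0.47, 0.30 and 0.72 within the batches. Cyp2c55 and Cyp2c65 gave r = 0.34 (adjusted permutation p = 0.00552) and rho = 0.35 (adjusted permutation p = 0.00372), with 0.47, 0.11 and 0.24 within the batches. Without the 2 mice farthest from the median of Cyp2c55, r was 0.43 and 0.39.

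Cyp1a1 and the AhR repressor Ahrr gave r = 0.33 (adjusted permutation p = 0.00552) and rho = 0.31 (adjusted permutation p = 0.00958), with 0.49, 0.31 and 0.27 within the batches. This relation dropped to r = 0.20 without the 9-month mice numbered 3 and 16, which both belong to batch 1. The next 2 pairs did not pass the test. Cyp1a1 with Tiparp, another AhR target, gave r = 0.14 and rho = 0.14 (adjusted permutation p = 0.256 and 0.3), and Cyp1a1 with Cyp1b1 gave r = 0.15 and rho = 0.11 (adjusted permutation p = 0.256 and 0.314). Cyp2c55 was lower where the distal colon score was higher (r = -0.42, adjusted permutation p = 0.00014; rho = -0.38, adjusted permutation p = 0.00072), a pair chosen after the values were seen, with -0.43, -0.45 and -0.39 within the batches and -0.41 without the 2 most extreme mice.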

How the data were processed

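RNA-seq counts of 83 mice were used, with the age group of each mouse read from its label, and all mice entered the model. Per the paper's methods and the labels, the authors trimmed reads with cutadapt 2.8, filtered them for quality, aligned pairs to GRCm38 with HISAT2 2.1.0, kept what they call uniquely mapped reads with SAMtools 1.9, by a flag that removes secondary alignments, and counted proper pairs per gene by strand with featureCounts of Subread 2.0.1. The deposited counts are raw whole numbers per gene and mouse, without normalization. Genes, positions and exon lengths came from GENCODE M21 (GRCm38), which held 37652 of the 37764 genes. The P450 members, lists and tests were chosen with earlier results of these data known.

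Counts were filtered with filterByExpr (minimum count 10), normalized by TMM and fitted with edgeR 4.0.16 in R 4.3.3 as a quasi-likelihood model of age group and library batch, with Benjamini-Hochberg adjustment and a threshold of 0.1. The standard error of a log2 fold change was taken from its F statistic. Correlations used log2 CPM with a prior count of 2. The text names the 10 members of highest mean TPM, up to 4 largest rises and falls per comparison among called members with a mean of at least 0.5 CPM and 1 direction in all 3 batches, members of the families CYP1, CYP2C, CYP3A, CYP4, CYP7, CYP24, CYP26 and CYP27, the members of the correlated pairs and at most 4 genes per pathway list. Other members named were chosen after their values were seen. The code was tested on simulated data. Python 3.11.15 with numpy 2.4.6, pandas 2.3.3, scipy 1.17.1 and matplotlib 3.10.9 was used for the rest. Alternatives, given with their effect in the closing section, were DESeq2 1.42.0, its size factors in edgeR, no filter, a stricter one that asks for 10 counts in each library, a model without batch, a replicate block by the number in the labels, values within each batch, marker scores as covariates, a threshold of 0.05 and a fit of only the ages compared. The correlation of 1 further pair is not reported here.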

Additional observations from a re-analysis of the deposited data

How the results depend on the processing

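The count of P450 genes called over any age difference stayed between 27 and 42 under the alternatives in which counts were recomputed (34 in the report), and that at 28 against 3 months between 21 and 37 (29 in the report). Single batches, in which only the named values were recomputed, are not among them. At 9 against 3 months the count of 5 was 2 without a filter on low counts, with only the 2 ages fitted, at an adjusted p below 0.05 and without the 7 mice low in smooth muscle markers, and 3 with at least 10 counts in every mouse. At 15 against 9 months the count of 0 became 1 with DESeq2, without the batch term, with the adipocyte score or with the clock score as a covariate, and 2 with epithelium and smooth muscle scores as covariates or with only the 2 ages fitted. At 24 against 15 months the count of 14 was 9 at an adjusted p below 0.05. With the clock score as a covariate the count at 28 against 24 months fell from 6 to 0 and that of departures from a straight line from 10 to 6. The adipocyte, distal colon and clock scores and the libraries left out were chosen after seeing the data. The cause of these shifts was not tested.

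Of 54 values of called members, 53 kept their direction in library batch 2 alone, and Cyp4v3 at 28 against 3 months turned to -0.009 there. Within single batches most calls were not returned, 40 of 53 in batch 1, 44 of 54 in batch 2 and 36 of 54 in batch 3. Cyp26b1 at 9 against 3 months turned to -0.24 without the 9-month mice numbered 14 and 16, an alternative chosen after seeing the data. With DESeq2, 53 of 54 kept their call. Cyp1a1 with Ahrr gave r = 0.20 without the 2 mice farthest on the x axis and 0.31 and 0.27 in batches 2 and 3, Cyp2c55 with Cyp2c65 gave 0.11 and 0.24 there, and Cyp2c55 with Cyp3a13 gave 0.30 in batch 2.

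The replicate numbers did not pair mice across ages. Over 161 pairs of the same number the median correlation of the deviations was 0.01, and 3 of 83 mice matched their own number best. With the replicate number as a replicate block, 31 members were called over any age difference, 4 at 9 against 3 months, 0 at 15 against 9 months, 12 at 24 against 15 months, 6 at 28 against 24 months, 27 at 28 against 3 months and 10 as departures from a straight line. Counts under about 1 CPM limit what can be said of the 8 tested members Cyp1a1, Cyp2c23, Cyp2c40, Cyp3a11, Cyp4f15, Cyp4f39, Cyp27b1 and Cyp46a1 and of the 49 members that were not tested.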
